A study of Mus musculus with 12 samples.

Results

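The genes described here encode laminins, other basement membrane proteins, integrins, and the receptors, partners and enzymes that tie epithelial cells to their matrix. They were taken by gene symbol from a list of 38 genes that leaves out the type IV collagens. Of these, 35 had a row in the table of 25208 genes, and 32 passed the filter on low counts and were tested among 16508 genes. Lama1, Frem1 and Itga8 were not analysed here. Lama4, Nid1 and Loxl2 had 4, 4 and 41 reads over all 12 libraries and did not pass the filter.

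The samples were mpkCCDc11 cells, an immortalised clonal mouse line with features of the kidney collecting duct and labelled as wild type, transfected with siRNA at 50 nM, either a control or one directed at Ctnnb1, which encodes beta-catenin. All cells were grown on permeable supports for 4 days, held for 24 h in medium free of serum and hormones, and then given vehicle or 1 nM dDAVP, a selective agonist of the vasopressin V2 receptor, for 24 h, with dDAVP on the basolateral side. The 4 groups were control siRNA with vehicle, control siRNA with dDAVP, Ctnnb1 siRNA with vehicle and Ctnnb1 siRNA with dDAVP, each with 3 libraries of total RNA depleted of ribosomal RNA. The labels do not say that replicates were separate cultures, so the p-values below reflect the spread between these samples and no more, and that spread may be technical.

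A basement membrane is the thin sheet of matrix on which an epithelium rests. Laminins, trimers of an alpha, a beta and a gamma chain, polymerise into its cell-facing network, and nidogens, perlecan and agrin link that network to other matrix. Integrins, pairs of an alpha and a beta subunit, and the receptors dystroglycan and basal cell adhesion molecule hold cells to the sheet and connect it to the cytoskeleton. In the collecting duct, vasopressin acts through its V2 receptor and cyclic AMP to bring about water reabsorption, and beta-catenin serves both in cell junctions and as a partner of TCF and LEF factors at Wnt target genes.

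The libraries held 32997720 to 48935473 counted reads, of which the listed genes took 0.686% to 0.811%. Ctnnb1 had 745 to 811 CPM (counts relative to the scaled library total) in the 6 control siRNA libraries and 306 to 342 CPM in the 6 Ctnnb1 siRNA libraries, a fall of 2.39-fold with vehicle and 2.37-fold with dDAVP. Aqp2, the water channel that vasopressin induces, had 0 to 0.135 CPM with vehicle and 3.26 to 7.69 CPM with dDAVP. Of 15 collecting duct markers, 13 had a mean of at least 1 TPM (a level scaled to transcript length and library), whereas Aqp4 and Scnn1b had means of 0.035 and 0.178 TPM. The fibroblast markers with a row (3 of 8) summed to 0.54 to 0.97 TPM and the endothelial ones (4 of 6) to 0.08 to 0.41 TPM in any library, so matrix genes were read here with the defining markers of those cells near 0. Of the leukocyte markers (4 of 6 with a row), Ptprc had a mean of 0.045 TPM and Cd14 43.3 TPM, and the list summed to 37.7 to 42.9, 48.8 to 55.4, 42.8 to 46.5 and 50.7 to 72.1 TPM in the order of groups given above. The only podocyte marker with a row (1 of 4), Podxl, went the other way, with 19.9 to 21.4, 14.1 to 18.4, 17.4 to 20.2 and 12.2 to 13.5 TPM in the same order. The proximal tubule markers (4 of 5 with a row) summed to 11.3 to 13.4, 8.7 to 10.7, 11 to 11.1 and 8.35 to 9.34 TPM. Most of that sum was Lrp2 (mean 10.4 TPM), and Slc5a2, Aqp1 and Cubn had means of 0.0025, 0.0533 and 0.0758 TPM. The dDAVP and vehicle libraries of each siRNA did not overlap for any of these 3 sums. With dDAVP they were higher for leukocyte markers and lower for podocyte and proximal tubule markers. The collecting duct markers, Aqp2 among them, did not overlap either and were higher with dDAVP. They summed to 4480 to 4530, 4690 to 4840, 4380 to 4480 and 4820 to 4900 TPM in the same order. The part of these sums in the dDAVP results was not tested. Libraries also differed in their reads on long transcripts. For the top decile of transcript length, the smoothed log2 deviation from the mean over libraries was 0.143 in control siRNA dDAVP replicate 1, 0.106 in Ctnnb1 siRNA dDAVP replicate 3, -0.077 in control siRNA dDAVP replicate 2 and -0.136 in Ctnnb1 siRNA dDAVP replicate 2. Of the 32 tested members, 28 lie above the median transcript length. In bulk RNA, fewer cells of a type and less RNA per cell cannot be told apart in any of the differences below.

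The matrix and integrin genes were mostly abundant in these cells. Of the 32 tested members, 25 had a mean TPM above the median of all tested genes, and 20 of the 35 with a row reached a mean of at least 50 TPM. Itgb1, the beta subunit shared by most matrix-binding integrins, was the highest, with 546 to 613 TPM in control siRNA vehicle libraries and a mean of 538 TPM over all libraries (SD 39.2, n = 12). It lay above every other member in all 12 libraries. Bcam, a receptor for the laminin alpha 5 chain, followed with a mean of 194 TPM, then Lamb1 with 170 TPM and Col18a1 with 162 TPM. Bcam was above Lamb1 in 10 of 12 libraries and Lamb1 above Col18a1 in 6 of 12, so the order of these neighbours is within their spread. Every value of Col18a1 was above every value of Itgb5 (mean 137 TPM), and every value of Lamc1 (48.7 TPM) above every value of Lamb2 (31.9 TPM), whereas neighbours between them in rank overlapped. At the low end stood Itga1 (6.61 TPM), Itgb8 (4.55 TPM) and Itga5 (3.58 TPM), and then Itgb3 (0.202 TPM) and Nid2 (0.0533 TPM, at most 12 reads in a library).

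**Figure D1:**
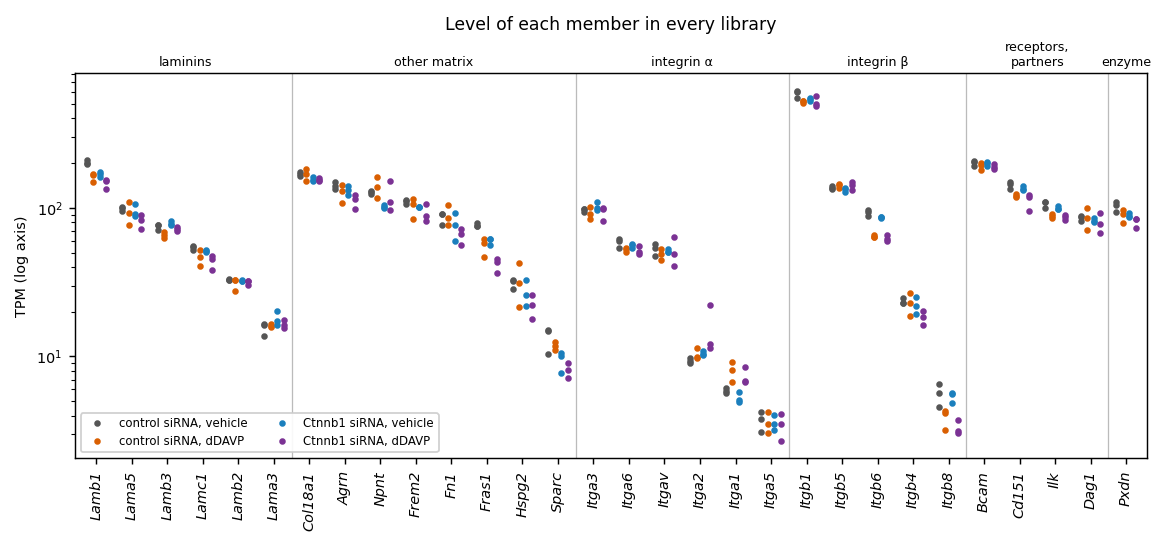
TPM (log axis) of the 30 members with a mean of at least 1 TPM, ordered by role and then by mean level; each point is 1 library, coloured by group. Itgb1 lies above all others, and the 4 groups of most members overlap or nearly touch. In each siRNA, the dDAVP points of Itgb6, Itgb8, Fras1, Lamb1, Lamb3, Ilk and Cd151 lie below the vehicle points. The dDAVP points of Itga1 and Itga2 lie above them.

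Within each family a few chains made up most of the level. Lama5 took 86.3% of the summed TPM of the laminin alpha chains analysed here in control siRNA vehicle cells (SD 0.856, n = 3), Lama3 13.6%, and Lama4 was at 0 reads in 11 libraries. Among the beta chains Lamb1 took 65.4% (SD 0.435), Lamb3 24.0% and Lamb2 10.6%. Itga3 took 42.6%, Itga6 25.7% and Itgav 23.3% of the summed TPM of the listed alpha integrins. The collagen-binding subunits Itga2 and Itga1 took 4.13% and 2.59%. Itga7 is outside the list and not in that sum, and had a mean of 15.1 TPM in the same cells. Itgb1 took 69.3% of the listed beta integrins, Itgb5 16.2%, Itgb6 11%, Itgb4 2.80% and Itgb8 0.661%. Itga3 and Itgb1, which lead their families, pair as a laminin receptor, while Itgav can pair with Itgb5, Itgb6, Itgb8, Itgb3 or Itgb1.

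The comparison of dDAVP with vehicle asks how 24 h of V2 receptor stimulation changed these genes. In control siRNA cells 4 of the 32 tested members (12.5%, against 2.83% of all 16508 genes) changed at an adjusted p under 0.05 in edgeR's quasi-likelihood test with Benjamini-Hochberg adjustment: Itga1 rose (1 of 32, against 1.91% of all genes) and Lamb1, Fras1 and Itgb6 fell (3 of 32, against 0.915%). In Ctnnb1 siRNA cells it was again 4 of 32 (against 2.78%): Itga1 rose (against 2.08% of all genes) and Fras1, Itgb6 and Itgb8 fell (against 0.697%). Averaged over both siRNAs 7 of 32 changed (21.9%, against 6.86%): Itga1 rose (against 4.33%) and Lamb1, Lamc1, Fras1, Itgb6, Itgb8 and Ilk fell (6 of 32, against 2.54%). The median log2 fold change of the 32 members was -0.044 with control siRNA, -0.076 with Ctnnb1 siRNA and -0.072 on average, against -0.004, -0.005 and -0.005 over all genes. Per library, the CPM of the dDAVP and vehicle groups did not overlap for 14 members with control siRNA (43.8%, against 22.2% of all genes) and for 16 with Ctnnb1 siRNA (50.0%, against 17.8%). Over both siRNAs, the 6 dDAVP libraries were clear of the 6 vehicle libraries for 6 members (18.8%, against 4.34%). The members were chosen with earlier results of these data known, and most were abundant. Their shares beside those of all genes are thus a description and no test of the set. The count of members lower with dDAVP in control siRNA cells was 6 without Ctnnb1 siRNA dDAVP replicate 3 and 5 without control siRNA dDAVP replicate 2. Over all genes, the lower calls were then 330 and 153, against 151 with all libraries. The single member called higher in control siRNA cells fell to 0 without control siRNA vehicle replicate 2 or dDAVP replicate 1. The all-gene higher calls were then 180 and 197, against 316. In Ctnnb1 siRNA cells the single higher call became 2 without any 1 of the 3 dDAVP replicates. For all genes these fits gave 350, 310 and 343 higher, against 344. On average, the higher calls became 2 without control siRNA dDAVP replicate 2 or 3. They were also 2 without Ctnnb1 siRNA replicate 3 of vehicle or replicate 1 of dDAVP, and 3 without replicate 2 or 3 of the latter group. In the order given, these fits called 743, 599, 636, 705, 772 and 770 of all genes higher, against 714.

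**Figure D2:**
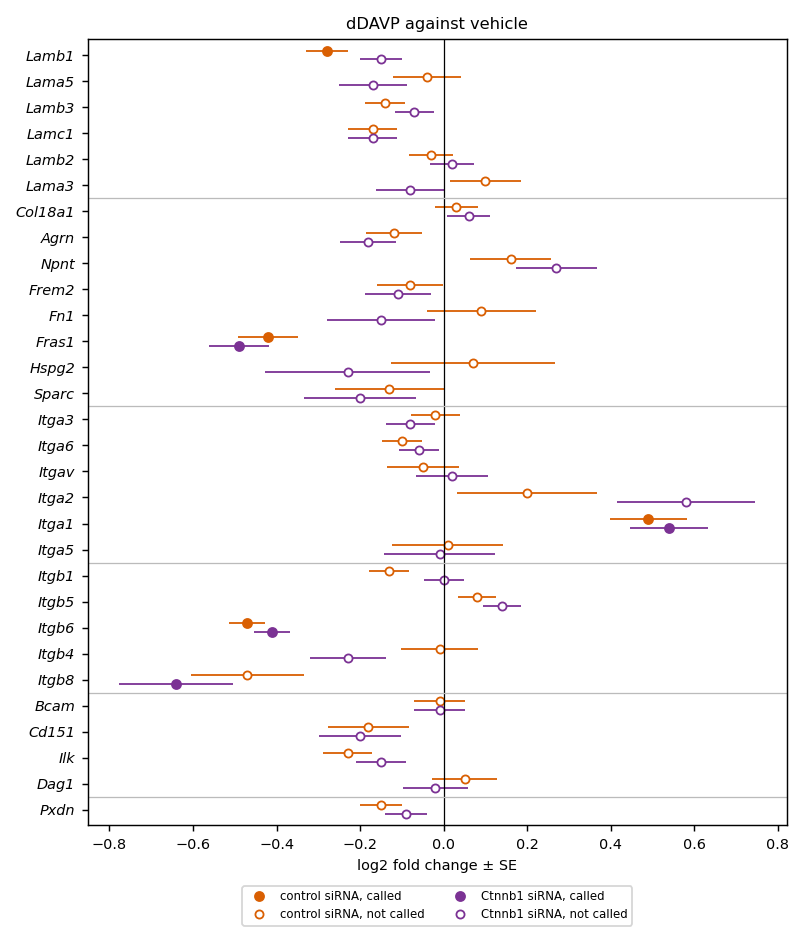
Log2 fold change (horizontal axis, ± SE) of dDAVP against vehicle for 30 tested members in control siRNA cells (orange) and Ctnnb1 siRNA cells (purple); filled points passed an adjusted p of 0.05 and open points did not, and Nid2 and Itgb3 are left out for their low counts. Itgb6 and Fras1 lie to the left of 0 and Itga1 to the right in both siRNAs, with filled points.

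The comparison of Ctnnb1 siRNA with control siRNA asks how lowering beta-catenin changed the same genes. Within a treatment, edgeR called 0 of 32 members with vehicle (against 0.430% of all genes, 0.206% higher and 0.224% lower) and 0 of 32 with dDAVP (against 0.267%, 0.121% higher and 0.145% lower). At an unadjusted p under 0.05 there were 8 of 32 members in each, against 8.09% of all genes with vehicle and 11.7% with dDAVP. With vehicle, DESeq2 called 2 lower (Lamb1 and Fras1, against 0.485% of all genes) and 0 higher (against 0.588%). With dDAVP it called 2 lower (Fras1 and Sparc, against 0.630%) and 1 higher (Lamb3, against 0.806%). An edgeR fit of the vehicle groups alone called 3 lower (Lamb1, Fras1 and Npnt, against 0.660% of 15902 genes) and 1 higher (Itga2, against 0.943%). Averaged over both treatments, Lamb3 rose (1 of 32, against 0.939% of all genes) and Fras1 and Sparc fell (2 of 32, against 0.909%), 3 of 32 in all (9.38%, against 1.85%), with a median of -0.007 over the members and -0.001 over all genes. The groups did not overlap in CPM for 9 members with vehicle (28.1%, against 18.2%) and for 9 with dDAVP (28.1%, against 13.3%), and over both treatments for 0 (against 1.29%). As for dDAVP, these shares are no test of the set. With dDAVP, edgeR called 2 lower and 2 higher without Ctnnb1 siRNA dDAVP replicate 3, and 1 lower without control siRNA dDAVP replicate 2. Over all genes it called 112 lower and 104 higher without the former and 45 lower without the latter. With all libraries it called 24 lower and 20 higher. On average over both treatments, 1 member was called lower without control siRNA vehicle replicate 2 or 3 or without replicate 3 of control siRNA with dDAVP or of Ctnnb1 siRNA with vehicle, and 2, 2 and 3 were called higher without Ctnnb1 siRNA dDAVP replicate 1, 2 and 3. The all-gene lower calls were 85, 85, 85 and 84 in that order, against 150 with all libraries. The all-gene higher calls were 158, 143 and 335, against 155.

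**Figure D3:**
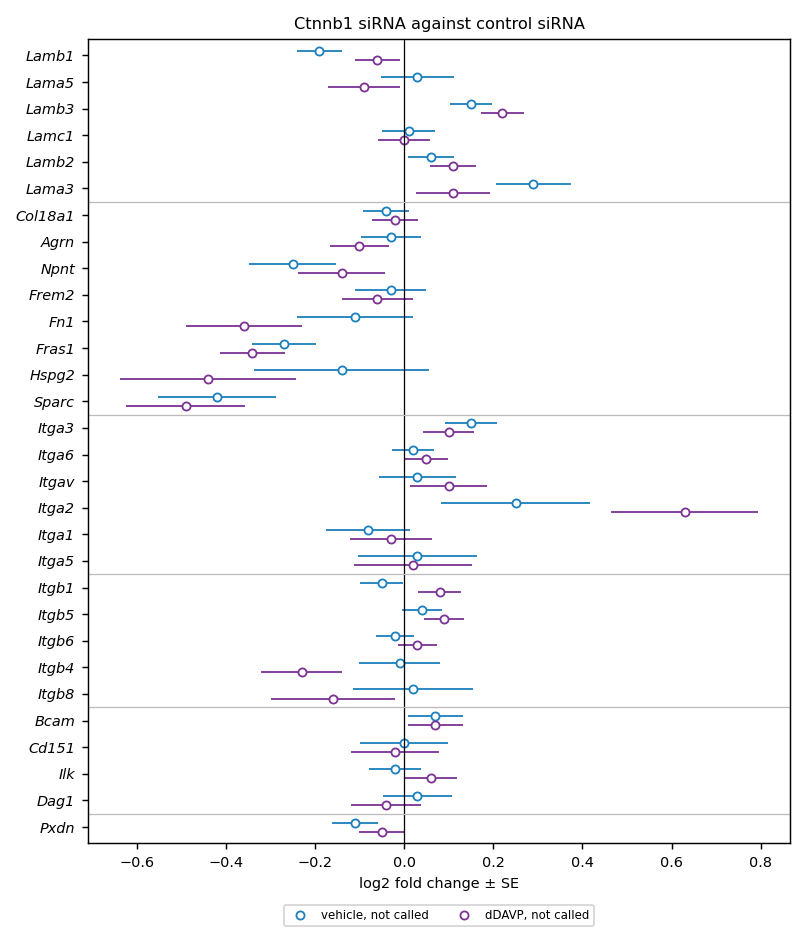
Log2 fold change (horizontal axis, ± SE) of Ctnnb1 siRNA against control siRNA for the same 30 members, with vehicle (blue) and with dDAVP (purple); all points are open because none passed an adjusted p of 0.05. Fras1 and Sparc lie to the left of 0 and Lamb3 to the right in both treatments.

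Whether the response to dDAVP differed between the siRNAs was tested as the interaction. It was called for 0 of 32 members and 0% of all genes by edgeR. At an unadjusted p under 0.05 there were 0 members and 829 genes (5.02%), and DESeq2 called 1 gene, which is no member. Leaving out Nid2 and Itgb3, the members' log2 differences between the responses ran from -0.29 (Hspg2) to 0.38 (Itga2). For Itgb6 the difference was 0.06 with a 95% interval of -0.08 to 0.19, for Lamb1 0.13 (-0.02 to 0.28), for Itga1 0.05 (-0.23 to 0.33), for Fras1 -0.07 (-0.29 to 0.15) and for Itgb8 -0.18 (-0.59 to 0.23). None of these intervals shows that the responses were equal.

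Among the laminins, the ligands of the set, Lamb1 was the chain called lower with dDAVP in control siRNA cells. Lamb1, a beta chain found in many epithelial laminins, had 579, 558 and 571 CPM in control siRNA vehicle libraries and 471, 458 and 476 CPM with dDAVP. In Ctnnb1 siRNA cells it had 469, 504 and 526 CPM with vehicle and 467, 439 and 442 CPM with dDAVP. The dDAVP and vehicle groups did not overlap in either siRNA, but the Ctnnb1 siRNA vehicle libraries reached down to the control siRNA dDAVP level. The fall was 1.22-fold in control siRNA cells (log2 -0.28, SE 0.050, adjusted p = 0.00464) and was not called in Ctnnb1 siRNA cells (log2 -0.15, adjusted p = 0.136). DESeq2 called the fall in Ctnnb1 siRNA cells (adjusted p = 0.0437). On average over both siRNAs the fall with dDAVP was called (log2 -0.22, SE 0.035, adjusted p = 9.46e-04). The average siRNA effect on Lamb1 was not called (log2 -0.12, adjusted p = 0.0993). DESeq2 called it lower (adjusted p = 0.0139), as did limma on log2(TPM + 1) (0.0413) and log2(TPM + 0.1) (0.0406).

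Lamb3, the beta chain of the laminin of hemidesmosomes, moved with the siRNA. It had 146, 148 and 145 CPM in control siRNA vehicle libraries, 133, 134 and 131 CPM in control siRNA dDAVP libraries, and with Ctnnb1 siRNA it had 165, 160 and 163 CPM with vehicle and 160, 160 and 145 CPM with dDAVP. Each Ctnnb1 siRNA group lay above the control siRNA group of the same treatment, and the lowest Ctnnb1 siRNA library, dDAVP replicate 3, was level with control siRNA vehicle. Averaged over both treatments Lamb3 rose 1.14-fold (log2 0.19, SE 0.034, adjusted p = 0.00790), and limma on log2(TPM + 1) did not call it (log2 0.10, adjusted p = 0.193). With dDAVP alone the difference of 0.22 had an adjusted p of 0.0681, and 0.00662 without Ctnnb1 siRNA dDAVP replicate 3. The dDAVP effect on Lamb3 was not called (log2 -0.14, adjusted p = 0.168, with control siRNA, and 0.0392 without Ctnnb1 siRNA dDAVP replicate 3, which bears on it through the shared estimate of the spread). The control siRNA vehicle and dDAVP libraries did not overlap. Its average dDAVP effect was not called either (log2 -0.10, adjusted p = 0.0859). DESeq2 called that average lower (adjusted p = 0.0452), as did limma on log2(TPM + 1) (log2 -0.16, adjusted p = 0.0307) and on log2(TPM + 0.1) (0.0305). Within each library, reads of Lamb3 per read of Lamb1 were 0.257 (SD 0.00716) in control siRNA vehicle cells, 0.284 (SD 0.00816) after dDAVP, and with Ctnnb1 siRNA 0.326 (SD 0.0233) and 0.345 (SD 0.0190), n = 3 each. The share of Lamb1 in the beta chain TPM was 65.4%, 62.6%, 60.4% and 58.5% in the same order. Neither the ratio nor the share shows which of the chains changed.

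Lamc1, the gamma chain of most laminins, had 201, 203 and 194 CPM in control siRNA vehicle libraries and 191, 164 and 177 CPM with dDAVP. With Ctnnb1 siRNA it had 195, 200 and 205 CPM with vehicle and 184, 166 and 182 CPM with dDAVP. All 6 dDAVP libraries were below all 6 vehicle libraries, with 191 CPM in the highest of the former and 194 CPM in the lowest of the latter. The average fall was 1.13-fold (log2 -0.17, SE 0.042, adjusted p = 0.0190), while neither siRNA alone gave a call (adjusted p = 0.176 and 0.155). The average was no longer called when control siRNA vehicle replicate 2 (adjusted p = 0.0612), control siRNA dDAVP replicate 3 (0.0522) or Ctnnb1 siRNA vehicle replicate 2 (0.0526) or 3 (0.0584) was left out, or on log2(TPM + 1) (0.0579).

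The other 3 tested laminins were not called in any comparison of the main edgeR fit. Lama5, the alpha chain of many mature epithelial basement membranes, had log2 dDAVP effects of -0.04 and -0.17 with control and Ctnnb1 siRNA, over 461 to 612 CPM. Its average dDAVP effect was called with a correction for transcript length (log2 -0.13, adjusted p = 0.0440). Lama3, the alpha chain that pairs with Lamb3, had 39.5 to 44.3 CPM in control siRNA vehicle libraries and 47.8 to 57.5 CPM with Ctnnb1 siRNA and vehicle, which do not overlap (log2 0.29, adjusted p = 0.224). Its average siRNA effect of 0.20 had an adjusted p of 0.115, and 0.0142 without Ctnnb1 siRNA dDAVP replicate 3. DESeq2 called that average (adjusted p = 0.0457). Lamb2, the beta chain of glomerular and synaptic laminins, stayed within 82.8 to 97.9 CPM over all libraries, with log2 dDAVP effects of -0.03 and 0.02.

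Among the other matrix and linker genes, Fras1 was lower with both agents. Fras1 encodes a large matrix protein that anchors epithelia to mesenchyme during development in a complex with Frem1 and Frem2. It had 602, 572 and 584 CPM in control siRNA vehicle libraries, 468, 388 and 455 CPM with dDAVP, and with Ctnnb1 siRNA 488, 503 and 464 CPM with vehicle and 364, 311 and 358 CPM with dDAVP. Every dDAVP library was below every vehicle library of the same siRNA, and every Ctnnb1 siRNA library below every control siRNA library of the same treatment. With dDAVP it fell 1.34-fold in control siRNA cells (log2 -0.42, SE 0.072, adjusted p = 0.00325) and 1.41-fold in Ctnnb1 siRNA cells (log2 -0.49, SE 0.072, adjusted p = 8.44e-04). With Ctnnb1 siRNA it fell 1.24-fold on average (log2 -0.31, SE 0.051, adjusted p = 0.00447), while within a treatment the log2 values of -0.27 and -0.34 had adjusted p = 0.159 and 0.0612. The latter was called without control siRNA dDAVP replicate 2 (adjusted p = 0.0133) or Ctnnb1 siRNA dDAVP replicate 3 (0.0383). The lowest library of each dDAVP group, replicate 2, is also the one with the fewest reads on long transcripts in its group, and with a per-library correction for transcript length the 3 calls were kept (log2 -0.54, -0.45 and -0.25, adjusted p = 6.44e-05, 4.22e-04 and 0.00629).

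Frem2, the partner of Fras1 in the same complex, was not called, at 536 to 696 CPM over all libraries with log2 dDAVP effects of -0.08 and -0.11 and siRNA effects of -0.03 and -0.06. The ratio of Fras1 to Frem2 reads within a library was 0.897 (SD 0.0281) in control siRNA vehicle cells, 0.709 (SD 0.0135) after dDAVP, and with Ctnnb1 siRNA 0.756 (SD 0.0335) and 0.582 (SD 0.0518), n = 3 each. The ratio shows that the pair differed unequally between groups, not that Frem2 was constant.

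Sparc, a matricellular protein that binds collagen IV, was lower with Ctnnb1 siRNA. It had 14, 18.8 and 18.6 CPM in control siRNA vehicle libraries and 13.4, 14.3 and 10.6 CPM with Ctnnb1 siRNA and vehicle. With dDAVP it had 16, 15.5 and 15.6 CPM in control siRNA libraries and 11.5, 12.5 and 9.46 CPM in Ctnnb1 siRNA libraries. The groups overlapped with vehicle and did not with dDAVP. The average fall was 1.37-fold (log2 -0.45, SE 0.094, adjusted p = 0.0198). The call was lost when leaving out control siRNA vehicle replicate 2 (adjusted p = 0.0684) or 3 (0.0734), control siRNA dDAVP replicate 3 (0.0529) or Ctnnb1 siRNA vehicle replicate 3 (0.0608).

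Col18a1, a heparan sulfate proteoglycan collagen and the most abundant of the group, had 423, 412 and 414 CPM in control siRNA vehicle libraries and 445, 405 and 427 CPM with dDAVP. In Ctnnb1 siRNA libraries it had 411, 398 and 406 CPM with vehicle and 437, 436 and 391 CPM with dDAVP. It was not called, and its 4 pairwise log2 values lay between -0.04 and 0.06. Agrn, the proteoglycan that binds laminin and dystroglycan, had log2 dDAVP effects of -0.12 and -0.18, and its average of -0.15 had an adjusted p of 0.0736 (0.0245 without control siRNA dDAVP replicate 1). Npnt, a ligand of integrin Itga8 in kidney development, had 239 to 244 CPM in Ctnnb1 siRNA vehicle libraries and 282 to 293 CPM in control siRNA vehicle libraries (log2 -0.25, adjusted p = 0.502). Its average dDAVP effect of 0.22 had an adjusted p of 0.0848 (0.0348 without control siRNA dDAVP replicate 2 and 0.0180 without Ctnnb1 siRNA dDAVP replicate 2), and its average siRNA effect of -0.19 an adjusted p of 0.226 (0.00347 without Ctnnb1 siRNA dDAVP replicate 3). Hspg2, perlecan, was spread widely between replicates (162 to 290 CPM in control siRNA dDAVP libraries, with the highest in the replicate that had most reads on long transcripts). Fn1, fibronectin, had 249 to 407 CPM over all libraries. Neither was called, with pairwise values from -0.44 to 0.07 for Hspg2 and from -0.36 to 0.09 for Fn1. Nid2 had at most 0.262 CPM and gave no usable difference.

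Among the alpha integrins, Itga1 was the member that rose with dDAVP. Itga1 pairs with Itgb1 as a receptor for collagens, collagen IV in particular. It had 17.7, 16.3 and 17.3 CPM in control siRNA vehicle libraries and 26.4, 21.3 and 24.1 CPM with dDAVP. With Ctnnb1 siRNA it had 14.9, 15.6 and 17.9 CPM with vehicle and 21.9, 22.9 and 25.5 CPM with dDAVP. All 6 dDAVP libraries were above all 6 vehicle libraries, and the siRNA groups of a treatment overlapped. The rise was 1.40-fold in control siRNA cells (log2 0.49, SE 0.093, adjusted p = 0.00816) and 1.45-fold in Ctnnb1 siRNA cells (log2 0.54, SE 0.093, adjusted p = 0.00375). In control siRNA cells the call was lost without vehicle replicate 2 (adjusted p = 0.0536) or dDAVP replicate 1 (0.0517), and limma on log2(TPM + 1) called neither (0.122 and 0.136); the average over both siRNAs (log2 0.51, adjusted p = 1.19e-04) was called under every alternative run.

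Itga2, the other collagen-binding alpha subunit, stood apart in 1 library. It had 46.6, 46.0 and 78.5 CPM in Ctnnb1 siRNA dDAVP libraries, against 38.8, 38 and 38 CPM with vehicle, and 39.0, 37.4 and 34.6 against 33.5, 33.2 and 30.1 CPM in control siRNA cells. The groups did not overlap, yet the log2 dDAVP effect of 0.58 in Ctnnb1 siRNA cells was not called (adjusted p = 0.106). Without replicate 3, the library at 78.5 CPM, the effect was 0.28 with an adjusted p of 0.0292, and without replicate 1 or 2 it was 0.70 (0.0377) and 0.71 (0.0441). The siRNA effect with dDAVP went from 0.63 (adjusted p = 0.171) to 0.33 (0.0300) without the same library. Averaged over both siRNAs, the dDAVP effect of 0.39 (adjusted p = 0.0788) was 0.24 (0.00249) without it, and the average siRNA effect of 0.44 (adjusted p = 0.102) was 0.29 (0.00176).

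The laminin-binding alpha subunits Itga3 and Itga6 were not called. Itga3, the most abundant alpha subunit, had 231, 229 and 226 CPM in control siRNA vehicle libraries, 239, 217 and 221 CPM with dDAVP, 268, 250 and 244 CPM in Ctnnb1 siRNA vehicle libraries and 259, 225 and 239 CPM with dDAVP. Its vehicle and dDAVP groups overlapped in both siRNAs, whereas with vehicle the Ctnnb1 siRNA libraries were all above the control siRNA libraries (log2 0.15, adjusted p = 0.453). Itga6, the partner of Itgb4 in hemidesmosomes, stayed within 153 to 176 CPM. Itgav, the subunit of the receptors that bind the RGD motif, had 185 to 255 CPM, and Itga5, a fibronectin receptor subunit, 6.81 to 9.04 CPM. Their pairwise log2 values lay between -0.05 and 0.10 for Itgav and between -0.01 and 0.03 for Itga5.

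Among the beta integrins, Itgb6 and Itgb8 were lower with dDAVP. Both encode subunits that pair with Itgav alone and are known for binding the latency peptide of TGF-beta and so for activating it. The promoters of these genes and of Itga1, the integrin that rose, are shown because they belong to the 3 integrins that were called. Each window holds the 250 bases before the gene start in the RefSeq annotation of GRCm38.p6, written 5′ to 3′ on the gene's own strand, the minus strand for all 3. Capitals mark matches, on either strand, to 3 motifs that were searched: TGACG, a CRE half-site bound by CREB family factors, TGANTCA, an AP-1 site, and CTTTGAN, a TCF and LEF site.
Itgb6 chr2:60722604-60722853: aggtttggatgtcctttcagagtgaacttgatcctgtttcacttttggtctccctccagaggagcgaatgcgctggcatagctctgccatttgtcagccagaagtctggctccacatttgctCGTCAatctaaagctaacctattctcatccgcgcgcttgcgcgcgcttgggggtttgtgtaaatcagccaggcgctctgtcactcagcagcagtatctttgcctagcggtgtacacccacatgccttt
Itgb8 chr12:119238277-119238526: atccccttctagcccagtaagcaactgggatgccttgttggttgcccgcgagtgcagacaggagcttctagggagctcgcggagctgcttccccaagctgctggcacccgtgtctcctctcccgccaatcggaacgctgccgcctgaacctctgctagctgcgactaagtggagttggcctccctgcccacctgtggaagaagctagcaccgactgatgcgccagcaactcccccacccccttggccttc
Itga1 chr13:115101965-115102214: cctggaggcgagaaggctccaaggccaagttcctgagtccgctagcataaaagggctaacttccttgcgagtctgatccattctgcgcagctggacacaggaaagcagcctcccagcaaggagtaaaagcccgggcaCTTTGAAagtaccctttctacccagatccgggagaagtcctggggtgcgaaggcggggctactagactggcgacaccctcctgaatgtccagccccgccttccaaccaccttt
The capitals in Itgb6 are TGACG on the opposite strand, 128 bases before the start, and those in Itga1 are CTTTGAN on the same strand, 113 bases before the start. Itgb8 held no match in this window. The 25 members searched had 34 windows, each ending at an annotated transcript start, which is not always the gene's outermost one. TGACG was in 6 of the 34 windows (17.6%; 1 each of Cd151, Ilk, Itgb1, Itgb6, Lama5 and Npnt), TGANTCA in 0 and CTTTGAN in 2 (5.88%; Frem2 and Itga1). Over all 32817 windows of the same length, 17.7% held TGACG, 6.75% TGANTCA and 13.8% CTTTGAN. A match is a stretch of letters and was not tested as a binding site.

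Itgb6 had the smallest adjusted p of the 32 members for dDAVP in each siRNA. It had 213, 216 and 216 CPM in control siRNA vehicle libraries and 151, 162 and 152 CPM with dDAVP. With Ctnnb1 siRNA it had 209, 214 and 212 CPM with vehicle and 158, 161 and 157 CPM with dDAVP. The lowest vehicle library held 209 CPM and the highest dDAVP library 162 CPM, and the siRNA groups overlapped within each treatment. The fall was 1.38-fold in control siRNA cells (log2 -0.47, SE 0.043, adjusted p = 9.01e-06) and 1.33-fold in Ctnnb1 siRNA cells (log2 -0.41, SE 0.043, adjusted p = 3.94e-05). The siRNA effects of -0.02 and 0.03 were not called. Of the other subunits that pair with Itgav, Itgb5 had 211 to 229 CPM with vehicle and 221 to 245 CPM with dDAVP over both siRNAs, with log2 dDAVP effects of 0.08 and 0.14 (adjusted p = 0.456 and 0.146). Its average of 0.11 had an adjusted p of 0.0545, so it was not called. Its adjusted p ran from 0.00495 to 0.374 over the alternatives. It was called in 6 of 20 of them, with 0.00495 by DESeq2, 0.0445 with DESeq2 size factors, 0.0365 with a stricter filter on low counts, 0.0393 with a correction for transcript length, and 0.0465 and 0.0344 without replicate 3 of the Ctnnb1 siRNA vehicle and dDAVP groups. DESeq2 also called Itgb5 higher with dDAVP in Ctnnb1 siRNA cells (adjusted p = 0.0407). Itgb6 reads per Itgb5 read were 0.999 (SD 0.0290) in control siRNA vehicle cells and 0.682 (SD 0.0106) with dDAVP, and 0.960 (SD 0.0404) and 0.655 (SD 0.0104) in Ctnnb1 siRNA cells, n = 3 each. In TPM terms Itgb6 went from 11% to 8.61% of the listed beta subunits with control siRNA and from 11.1% to 8.43% with Ctnnb1 siRNA.

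Itgb8 was much less abundant than Itgb6 in TPM (means of 4.55 and 76.4). It had 7.22, 8.50 and 9.52 CPM in control siRNA vehicle libraries and 6.21, 7.13 and 4.97 CPM with dDAVP, and 8.72, 9.02 and 7.88 CPM against 5.10, 5.55 and 5.75 CPM in Ctnnb1 siRNA cells. The dDAVP libraries were below the vehicle libraries in both, and the closest control siRNA libraries, at 7.13 and 7.22 CPM, nearly touched. It fell 1.56-fold in Ctnnb1 siRNA cells (log2 -0.64, SE 0.136, adjusted p = 0.0164) and 1.47-fold on average (log2 -0.55, SE 0.096, adjusted p = 0.00176). The control siRNA value of -0.47 was not called (adjusted p = 0.0918, and 0.0397 without control siRNA dDAVP replicate 2). DESeq2 called it with all libraries (log2 -0.46, adjusted p = 0.0456). The call in Ctnnb1 siRNA cells was lost without vehicle replicate 1 (adjusted p = 0.0761) or 2 (0.0940) or dDAVP replicate 1 (0.0616), and on log2(TPM + 1) (0.0605).

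The most abundant beta subunit, Itgb1, was not called. Its libraries held 1160, 1210 and 1210 CPM in control siRNA vehicle cells, 1060, 1120 and 1090 CPM with dDAVP, 1100, 1160 and 1190 CPM in Ctnnb1 siRNA vehicle cells and 1120, 1150 and 1190 CPM with dDAVP. The control siRNA groups did not overlap (log2 -0.13, adjusted p = 0.204) and the Ctnnb1 siRNA groups did (log2 0.00). Itgb4, the hemidesmosome subunit, had 56.6 to 78.3 CPM with log2 dDAVP effects of -0.01 and -0.23, not called. Itgb3, at 0.326 to 0.990 CPM and 14 to 47 reads a library, had a log2 dDAVP effect of 1.13 in Ctnnb1 siRNA cells that was not called (adjusted p = 0.0583), and an average of 0.70 (0.0660, and 0.0480 without control siRNA dDAVP replicate 3).

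**Figure D4:**
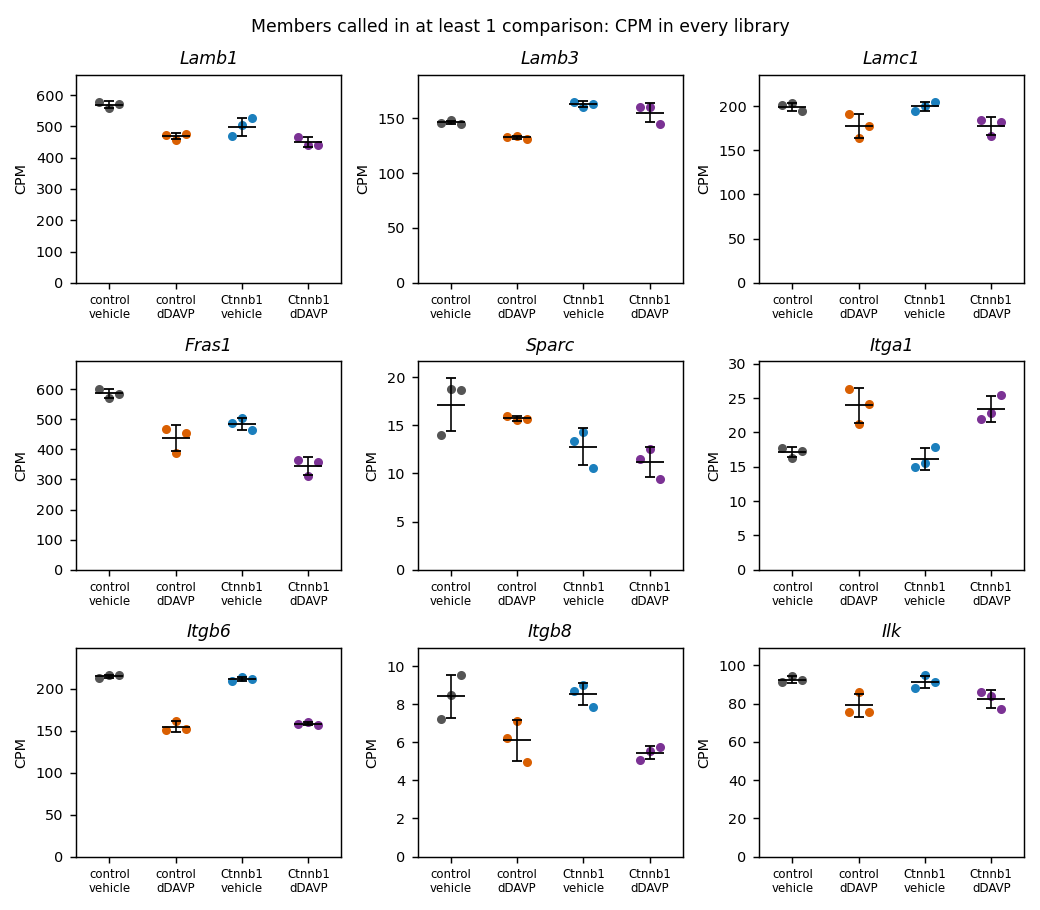
CPM (vertical axis, from 0) in each library for the 9 members called in at least 1 comparison, by group; points are libraries and the bars give the mean ± SD of 3. Itgb6 separates vehicle from dDAVP in both siRNAs, Itga1 moves the opposite way, and Fras1 steps down with dDAVP and again with Ctnnb1 siRNA.

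Of the receptors and partners, Ilk was called on average. Ilk encodes integrin-linked kinase, the scaffold that connects beta integrins to actin. It had 91.1, 94.3 and 92.3 CPM in control siRNA vehicle libraries, 75.5, 85.9 and 75.8 CPM with dDAVP, 88.3, 94.7 and 91.3 CPM in Ctnnb1 siRNA vehicle libraries and 86.1, 84.1 and 77.2 CPM with dDAVP. All 6 dDAVP libraries were below all 6 vehicle libraries. The average fall was 1.14-fold (log2 -0.19, SE 0.042, adjusted p = 0.0113). In control siRNA cells alone the value of -0.23 had an adjusted p of 0.0546, and in Ctnnb1 siRNA cells -0.15 had 0.255. The former ran from 0.0131 to 0.263 over 21 alternatives and was called in 8. It was 0.0131 without dDAVP replicate 2 and 0.0166 without Ctnnb1 siRNA dDAVP replicate 3. With all libraries it was 0.0183 by DESeq2, 0.0448 with the stricter filter, 0.0161 by limma on log2(TPM + 1) and 0.0159 with the length correction. The exons of Ilk overlap those of Taf10 on the opposite strand over 76.7% of their length, and no source used here says whether strand was used in counting, so reads of the 2 genes may not be told apart.

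Bcam, the most abundant receptor of the group, had 251, 221 and 228 CPM in control siRNA vehicle libraries and 231, 230 and 233 CPM with dDAVP. With Ctnnb1 siRNA it had 246, 237 and 251 CPM with vehicle and 253, 258 and 219 CPM with dDAVP. Its groups overlapped in every comparison and its log2 values lay between -0.01 and 0.07. Dag1, dystroglycan, had 208 to 267 CPM and log2 values between -0.04 and 0.05. Cd151, the tetraspanin that associates with the laminin-binding integrins, had 124 to 131 CPM in the vehicle libraries and 87.2 to 123 CPM in the dDAVP libraries, which do not overlap. Its log2 effects of -0.18 and -0.20 were not called (average adjusted p = 0.137), and without Ctnnb1 siRNA dDAVP replicate 3, the library at 87.2 CPM, the control siRNA value had an adjusted p of 0.0327 through the shared estimate of the spread. The average was called lower by limma on log2(TPM + 1) (log2 -0.26, adjusted p = 0.0177) and log2(TPM + 0.1) (0.0166). It was also called with the length correction (adjusted p = 0.0461). The 1 tested enzyme, Pxdn, the peroxidase that cross-links collagen IV, had 287 to 351 CPM, with log2 dDAVP effects of -0.15 and -0.09 (average adjusted p = 0.0616, and 0.0493 and 0.0389 without replicate 1 of the control and of the Ctnnb1 siRNA dDAVP group).

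**Figure D5:**
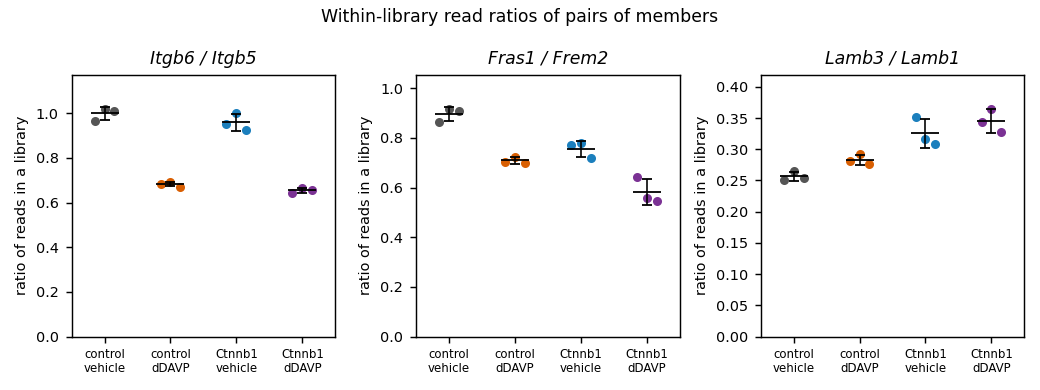
Ratio of reads within each library (vertical axis, from 0) for 3 pairs of members, by group; points are libraries and bars the mean ± SD of 3. Itgb6 per Itgb5 drops from 0.999 to 0.682 and from 0.960 to 0.655 with dDAVP, Fras1 per Frem2 is lowest with both agents at 0.582, and Lamb3 per Lamb1 is higher in each Ctnnb1 siRNA group than in the control siRNA group of the same treatment.

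Genes of the same families outside the list were counted for comparison. These lists too were chosen with earlier results of these data known. Of 36 further laminins, integrins and basement membrane proteins, 19 were tested. Among them 3 fell with dDAVP in each siRNA (15.8%, against 0.915% and 0.697% of all genes) and 0 rose (against 1.91% and 2.08%). Itga7, a laminin-binding alpha subunit, fell in both (log2 -0.33 and -0.39, adjusted p = 0.0430 and 0.0160). Vwa1 fell with control siRNA (log2 -0.53, adjusted p = 0.0110) and Tinagl1 with Ctnnb1 siRNA (log2 -0.44, adjusted p = 0.0357). On average Thbs1, thrombospondin, rose with dDAVP (log2 0.19, adjusted p = 0.0222). With Ctnnb1 siRNA, Spp1, osteopontin, a ligand of the Itgav integrins, rose with vehicle from 46.8, 35.0 and 37.5 CPM to 70.3, 62.3 and 73.6 CPM (log2 0.79, adjusted p = 0.00507). Spp1 was the 1 gene of the 19 called there (5.26%, against 0.430% of all genes). The medians of this list were -0.030 and -0.021 for dDAVP in the 2 siRNAs.

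Of 40 adhesion adaptors and linkers, 36 were tested. With dDAVP 2 rose and 2 fell in control siRNA cells and 1 rose and 1 fell in Ctnnb1 siRNA cells. These were 11.1% and 5.56% of the tested list, against 2.83% and 2.78% of all genes. Tspan3 fell (log2 -0.26 and -0.23, adjusted p = 0.00416 and 0.0108) and Tspan8, another tetraspanin, rose (log2 0.29 and 0.31, adjusted p = 0.0415 and 0.0243). Fermt1, a kindlin that activates integrins, rose in control siRNA cells (log2 0.27, adjusted p = 0.0204). Tln2, a talin that links integrins to actin, was the adaptor that fell with Ctnnb1 siRNA in both treatments, from 89.4, 97.3 and 94.1 CPM to 64.9, 63.5 and 54.0 CPM with vehicle (log2 -0.62, adjusted p = 4.48e-04) and from 82.7, 75.3 and 74.1 CPM to 52.1, 52.3 and 51.2 CPM with dDAVP (log2 -0.58, adjusted p = 0.00120). It also fell with dDAVP in control siRNA cells (log2 -0.27, adjusted p = 0.0387). For the siRNA, 1 of 36 was called in each treatment (2.78%, against 0.430% and 0.267% of all genes). On average over both siRNAs, Dst rose (log2 0.31, adjusted p = 0.0126) and Flna, filamin A, fell with dDAVP (log2 -0.16, adjusted p = 0.0226). On average over both treatments, the tetraspanins Tspan8 and Cd82 rose with Ctnnb1 siRNA (log2 0.30 and 0.16, adjusted p = 0.00450 and 0.0446). The shares called on average were 16.7% for dDAVP and 8.33% for the siRNA, against 6.86% and 1.85% of all genes.

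Of 42 matrix enzymes and inhibitors, 33 were tested. With dDAVP 2 rose and 2 fell in control siRNA cells and 1 rose and 2 fell in Ctnnb1 siRNA cells. Of the tested list, 12.1% and 9.09% were called, against 2.83% and 2.78% of all genes. Tgm2, the transglutaminase that cross-links fibronectin and other matrix proteins, rose 2.27-fold from 4.71, 4.62 and 4.45 CPM to 11.6, 10.7 and 9.01 CPM in control siRNA cells (adjusted p = 8.83e-04), and 2.49-fold in Ctnnb1 siRNA cells (adjusted p = 3.39e-04). Adamts1, a secreted metalloprotease, rose in control siRNA cells (log2 0.38, adjusted p = 0.00226). Mmp15, a membrane-bound metalloprotease, fell with dDAVP in both siRNAs (log2 -0.38 and -0.41, adjusted p = 0.0458 and 0.0326). B4gat1, a glycosyltransferase that acts on dystroglycan, fell in control siRNA cells (log2 -0.27, adjusted p = 0.0460) and Adamts5 in Ctnnb1 siRNA cells (log2 -0.22, adjusted p = 0.0372). On average P4ha1, a collagen prolyl hydroxylase subunit, and Serpinh1, a collagen chaperone, also fell with dDAVP (log2 -0.24 and -0.32, adjusted p = 0.00766 and 0.0143). With Ctnnb1 siRNA and vehicle 3 rose (9.09%, against 0.206% of all genes) and 0 fell (against 0.224%). These were Plaur, the urokinase receptor (log2 0.57, adjusted p = 0.0109), Adamts1 (log2 0.34, adjusted p = 0.0199) and P4ha1 (log2 0.39, adjusted p = 0.0230), of which P4ha1 also rose with dDAVP present (log2 0.45, adjusted p = 0.0125). Mmp15 was lower with Ctnnb1 siRNA on average (log2 -0.37, adjusted p = 0.00861). The average effects called 21.2% of this list for dDAVP and 18.2% for the siRNA, against 6.86% and 1.85% of all genes. The type IV collagens, left out of the set by its rule, had 5 of 6 members lower with dDAVP in each siRNA. This was 83.3%, against 0.915% and 0.697% of all genes, with list medians of -0.518 and -0.531.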

How the data were processed

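Per the submitters' processing notes, reads were handled with FastQC, Trimmomatic, HISAT2, StringTie and DESeq2 on GRCm38 (mm10), with no versions named; the use of strand in counting is not given in the sources used here. The deposited table holds read counts per gene and library, per the file headers, which are whole numbers. It also holds TPM values that the authors computed per library; these were used for levels and for the alternatives on log2 TPM.

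The members and lists were chosen with earlier results of these data known. The counts went through edgeR 4.0.16 in R 4.3.3: filterByExpr kept 16508 genes with 99.97% of reads, scaling was by TMM, and all 12 libraries entered a single robust quasi-likelihood model with a coefficient for each of the 4 groups (common biological coefficient of variation 8.26%). P-values were adjusted by Benjamini-Hochberg over the 16508 genes, and calls were made under 0.05. Adjusted p-values are edgeR's unless another tool is named. SE is the absolute log2 fold change over the square root of F. CPM values are TMM-scaled. The fit was tested on simulated data.

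Values in every library are given for members called in any contrast and for the most abundant member of each role, and up to 3 called genes per direction and contrast are named from the other lists; 1 such gene is not reported here. Itga2, which stood apart, was added after its values were seen. All 35 members with a row matched RefSeq, and 25 had at least 1 promoter window that was searched. Alternatives were DESeq2 1.42.0, its size factors, no filter, a stricter filter (1 CPM in 3 libraries and a mean of 20 reads), separate fits for each pair of groups, the replicate number as a block, limma 3.58.1 on log2(TPM + 1) and log2(TPM + 0.1), and each library left out. A correction for transcript length was chosen after seeing the data. P-values cover counting error and the spread between libraries only, and the labels' protocols also name a TRIM28 siRNA, not analysed here.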

Additional observations from a re-analysis of the deposited data

How the results depend on the processing

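Of 18 member effects called in the 7 contrasts, 12 were called under every alternative run, among them Itgb6 and Fras1 with dDAVP in each siRNA, Lamb1 with dDAVP in control siRNA cells and Itga1, Itgb8 and Ilk on average. No member effect that was called changed sign, and 34 effects were called only under an alternative. The calls of Itga1 in each siRNA, Itgb8 in Ctnnb1 siRNA cells, Lamc1 with dDAVP on average and Lamb3 with Ctnnb1 siRNA on average were lost on log2 TPM with either pseudocount, and the cause was not tested.

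The number of members called moved, and changes that were smaller in proportion are not all listed. Among these, 6 lower for the average dDAVP effect became 9 by DESeq2 and 7 on both log2 TPM scales. All-gene lower calls went from 419 to 543, 703 and 696. For dDAVP with control siRNA, 3 lower became 4 on both log2 TPM scales, with the stricter filter and with the replicate block. With Ctnnb1 siRNA, 3 lower became 4 by DESeq2 and 2 on both log2 TPM scales. The larger changes were as follows. For dDAVP with control siRNA, 3 lower became 5 by DESeq2 and 7 with the length correction, and 1 higher became 0 on log2(TPM + 1) and on log2(TPM + 0.1). The whole table went from 151 lower to 258 and 265, and from 316 higher to 170 and 173. For dDAVP with Ctnnb1 siRNA, 1 higher became 2 by DESeq2, 0 on both TPM scales and 3 with the length correction. Among all genes, 344 higher became 523 by DESeq2, 133 and 137 on the TPM scales and 451 with the length correction. For Ctnnb1 siRNA with vehicle, 0 lower became 2 by DESeq2 and 3 in a fit of the 2 groups, where 0 higher became 1. All-gene counts went from 37 lower to 80 and 105, and from 34 higher to 150 in the fit of the 2 groups. For Ctnnb1 siRNA with dDAVP, 0 lower became 2 by DESeq2, and 0 higher became 1 by DESeq2 and 2 with the length correction. Here the whole table went from 24 lower to 104, and from 20 higher to 133 and 63. For the average dDAVP effect, 6 lower became 10 with the length correction, and 1 higher became 2 with DESeq2 size factors, 3 by DESeq2, 2 with the stricter filter and 4 with the length correction. With all genes counted, 419 lower became 623, and 714 higher became 732, 895, 728 and 827. For the average siRNA effect, 1 higher became 3 by DESeq2, 0 on both TPM scales and 3 with the length correction. In the whole table, 155 higher became 302 by DESeq2, 45 and 42 on the TPM scales and 222 with the length correction.

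With each library left out in turn, the lower calls ran from 3 to 6 for dDAVP with control siRNA, 2 to 3 with Ctnnb1 siRNA and 5 to 8 on average, and the higher calls from 0 to 1, 1 to 2 and 1 to 3. For the siRNA, both ran from 0 to 0 with vehicle, 0 to 2 with dDAVP and 1 to 3 on average, and for the interaction from 0 to 0. All-gene counts moved too, as with 60 to 330 lower calls for dDAVP with control siRNA. On log2(TPM + 1) the share of higher among all called genes went from 67.7% to 42.4% for dDAVP with control siRNA, from 74.9% to 63.3% with Ctnnb1 siRNA, from 63.0% to 33.4% on average and from 50.8% to 16.7% for the average siRNA effect. It went from 47.9% to 25.4% for the siRNA with vehicle and from 45.5% to 19.0% with dDAVP. The log2 TPM fits had no TMM scaling. Their median log2 fold change over all genes, on log2(TPM + 1), was -0.046 and -0.049 for dDAVP with control and Ctnnb1 siRNA. For the siRNA it was -0.068 with vehicle and -0.065 with dDAVP. The main fit had -0.004, -0.005, -0.003 and 0.001 in the same order. The part of this shift in the lost calls was not tested.

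Same-numbered replicates did not deviate together (18 correlations between -0.086 and 0.072, and 3 of 12 libraries closest to their own number). With the replicate block, Ilk with dDAVP in control siRNA cells had an adjusted p of 0.0429 and Agrn with dDAVP on average 0.0454, and the counts of members were within 1.5 times those without it. Depth limits Nid2 and Itgb3 most, with at most 12 and 47 reads in a library.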
